A study of Homo sapiens with 18 samples.

Results

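The regions described here were the control-only acRIP peaks in 3' UTRs, that is, stretches of mRNA after the stop codon that an antibody against N4-acetylcytidine (ac4C) enriched in control cells and that shared no base with any peak called in NAT10-knockdown cells. They numbered 3142 peaks on 2377 genes, of 16892 peaks in the control list. They were chosen by measured values: a peak was kept when no base of its blocks lay in a peak of the knockdown list on the same chromosome and strand, when the FPKM of its gene (reads scaled to transcript length and library size) averaged 1 or more in both groups, and when its spliced midpoint lay in the 3' UTR of the gene's longest coding transcript (GENCODE v29 on GRCh38). Their absence from the knockdown list is therefore a description and not a result.

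PANC-1, an established line from a human pancreatic ductal carcinoma, carried a lentiviral control hairpin (shCtrl) or a lentiviral hairpin against NAT10 (shNAT10). Each group was profiled by RNA-seq in 3 libraries and by acRIP-seq in 3 immunoprecipitated (IP) and 3 input libraries. The acRIP data came as 1 peak list per group, each peak with a p-value and a fold enrichment of IP over input, so no peak could be compared between replicates, and a peak missing from a list had no value there. One hairpin line stood for each state, and the labels did not say whether the libraries of a group came from separate cultures, so the p-values measure the spread between these libraries only.

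NAT10 is the acetyltransferase that writes ac4C on cytidines of rRNA, of tRNA with an adaptor, and of mRNA, where the mark has been linked to stability and translation. The 3' UTR of an mRNA is not translated. It carries the binding sites of microRNAs and of proteins that set how long the message lasts, and the signal AAUAAA near its end directs cleavage and polyadenylation.

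The NAT10 transcript itself stood at an FPKM of 31.6, 27.7 and 28.6 in the shCtrl libraries and of 7.92, 8.43 and 7.9 in the shNAT10 libraries, a log2 fold change of -1.84 (SE 0.08, limma adjusted p = 3.9e-05). Reads recovered per RNA-seq library ranged from 15831720 to 23521762. Of the ductal markers, KRT8, KRT18 and KRT19 lay between 159 and 2009 FPKM in every library, KRT7 between 4.52 and 10.7 and EPCAM between 4.01 and 24.2. The blood marker CD3E was at 0 and PTPRC reached 0.0399, the endothelial markers PECAM1 and CDH5 reached 0.107, the liver markers ALB and APOA1 reached 0.455, and of the fibroblast markers COL1A2 and DCN reached 0.0192 while COL1A1 ran from 17.3 to 34. One library stood apart: shCtrl replicate 2 had lower values on long 3' UTRs and higher values on short ones than the other shCtrl libraries. Its median log2 difference from the mean of shCtrl replicates 1 and 3 was -0.31 over the 824 expressed genes with a 3' UTR of at least 5000 bases and 0.21 over the 4368 genes with one under 1000 bases. Over the 2377 genes of the control-only peaks it was -0.12, against 0.04 over all tested genes. The median and counts of these genes and the classes by 3' UTR length are therefore given with and without that library. Other gene sets, gene lists and families are given on all libraries only. Of the 66 called genes tried without shCtrl replicate 2, 0 lost the call.

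The strongest of these peaks are shown by sequence, because ac4C has been placed in a repeat of C followed by any 2 bases (CNN, repeated 4 times). They are the 6 control-only peaks with the lowest p-values and the 6 with the highest fold enrichments on genes averaging an FPKM of 10 or more in both groups, without the peaks of RAD21 and EDEM1. Each line gives 30 bases of the GENCODE v29 transcript, 5′ to 3′ on GRCh38, with the repeat nearest to the peak midpoint in capitals where the peak held one, and otherwise the bases at the midpoint in lower case. The first 4 lines are from the lowest p-values and the other lines from the highest fold enrichments.
ACTB, chr7:5527267-5527296, minus strand: gccttcgtgCCCCCCCTTCCCccttttttg
HDGF, chr1:156742469-156742498, minus strand: ctctccattCTGCTCCTTCCCcatcgttgc
TMEM30A, chr6:75253868-75253897, minus strand: tgcattaattttcaggaactattttgaatt
TNS3, chr7:47278046-47278075, minus strand: gaactCCCCTCCCTCCCtggacccaccgat
CSRNP2, chr12:51063058-51063087, minus strand: atgttcttaagtactagagttaaacttgtc
CCND3, chr6:41935189-41935218, minus strand: ttttcctccCTTCTGCTACTGgcaaaagga
PI4KA, chr22:20707847-20707876, minus strand: cgccatggaCTGCAGCGACAAtcaatggat
RCOR1, chr14:102729123-102729152, plus strand: attttctcctaagtataagttattgtgcaa
AP2A2, chr11:1011287-1011316, plus strand: ggccttggatgtgcagccaggggaggagcg
HDGFL2, chr19:4502020-4502049, plus strand: agccaggccCAGCCCCCGCCCgagctcagg
The peaks of TMEM30A, CSRNP2, RCOR1 and AP2A2 held no such repeat, and the other peaks shown did. In ACTB the repeat lay 79 bases downstream of the midpoint, and in HDGFL2 12 bases upstream of it. A match says only that these letters are present.

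The peaks with the lowest p-values and those with the highest fold enrichments were of different kinds. The peak on ACTB, beta-actin, led by p-value, at a -log10 of 2060, with a fold enrichment of only 1.99. The mean FPKM of the gene was 1765 in shCtrl and 1700 in shNAT10. It spanned chr7:5527181-5527539, with its midpoint 387 bases after the stop codon in a 3' UTR of 601 bases. EDEM1, which feeds misfolded glycoproteins from the endoplasmic reticulum to degradation, carried a peak of -log10 p 1630 and fold enrichment 126 at 3037 bases from the stop codon. HDGF, a nuclear growth factor, carried one of 780 bases (-log10 p 1570, fold enrichment 23.3), and no shNAT10 peak was listed anywhere on the gene. TMEM30A, a subunit of phospholipid flippases, had a peak of -log10 p 1500 and fold enrichment 80.7. TNS3, a tensin of focal adhesions, had one of -log10 p 1270 and fold enrichment 35.1 that reached back across the stop codon, with its midpoint 47 bases after it, while 4 further control peaks in the same 3' UTR did share bases with shNAT10 peaks.

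The highest fold enrichments belonged to CSRNP2 (2750), the cyclin CCND3 (2480), the lipid kinase PI4KA (2450), RCOR1 (2190), a partner of chromatin-modifying enzymes, AP2A2 (2080), a subunit of the clathrin adaptor, and HDGFL2 (1950), a relative of HDGF. Their -log10 p ran only from 363 to 512. In each of these 6 peaks the ratio of -log10 p to fold enrichment lay under 0.2, as it did in 467 of the 3142 control-only peaks (14.9%, 95% Wilson interval 13.7% to 16.1%). These 467 had a median fold enrichment of 796 on genes with a median shCtrl FPKM of 4.34, and the other control-only peaks had medians of 40.8 and 15.2. Among those of them with a fold enrichment under 100, 58 of 74 lay within 0.05 of a multiple of 3.6, such as 10.8, 14.4 and 21.6, against 117 of 1852 of the other control-only peaks (6.32%). The step of 3.6 was read from these same low-ratio peaks, so the comparison is a description. The same low ratio held for 14.8% of the shNAT10-only 3' UTR peaks and for 5.13% of the control 3' UTR peaks shared with the knockdown (3.96% to 6.62%). The reads behind IP and input were not in the lists, so what sets these steps was not tested.

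Of the 4214 control peaks in 3' UTRs of expressed genes, 3142 shared no base with a shNAT10 peak (74.6%, 73.2% to 75.9%) and 1072 did. The mirror share was nearly as high, since 2816 of the 3881 shNAT10 peaks in 3' UTRs shared no base with a control peak (72.6%, 71.1% to 73.9%). In the coding sequence 4835 of 6624 control peaks (73%, 71.9% to 74%) were unshared. Intervals are Wilson intervals at the 95% level and cover counting error only. The interval of the control-only share overlapped both of the others.

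The share of unshared peaks fell with expression and rose with fold enrichment in both lists alike. Of the control 3' UTR peaks on genes with a mean shCtrl FPKM of 1 to 5, 84.2% (81.5% to 86.6%) were control-only, and on genes of 100 or more 52.1% (44.6% to 59.5%) were. The shNAT10 list gave 82.5% (79.6% to 85.1%) and 52.2% (44.5% to 59.7%) in the same classes. Of control peaks with a fold enrichment under 10, 68.8% (65.7% to 71.8%) were unshared, and of those at 250 or more 82.5% (80% to 84.8%). The shNAT10 list gave 66.2% (62.9% to 69.4%) and 81.1% (78.3% to 83.6%). These classes use values of the same lists that chose the peaks, so they too are descriptions.

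By their own values the control-only peaks resembled the shNAT10-only peaks more than the shared ones. The median fold enrichment was 55.4 in the control-only peaks (quartiles 14.7 and 233), 55.4 in the shNAT10-only peaks and 32.4 in the shared control peaks. The median -log10 p was 156, 173 and 220 in the same order, and the median spliced length was 211 bases in both unshared sets and longer in the shared peaks. A median shCtrl FPKM of 12.5 belonged to the control-only peaks, of 11.9 to the shNAT10-only peaks and of 19.3 to the shared control peaks. These peaks were selected on the sharing itself, so the medians are descriptions.

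Many control-only peaks had a knockdown peak close by. Of the 3142, 389 (12.4%, 11.3% to 13.6%) had a shNAT10 peak within 200 genomic bases, 833 (26.5%, 25% to 28.1%) within 500 bases, and 1284 (40.9%, 39.2% to 42.6%) none within 5000 bases. No shNAT10 peak began closer than 28 bases, and of the 833 gaps within 500 bases 89% lay within 2 bases of a multiple of 30, so the edges of peaks were resolved in steps of about 30 bases. At the edge of the rule, the peak on FBXO28 was kept with a gap of 28 bases, and the peak on CLIC4 was left out for 1 shared base, as were 83 control peaks in all. At the edge of the FPKM floor, ZNF26 (means of 1 in shCtrl and 1.59 in shNAT10) and BBS5 (1.98 and 1) were kept, and LOX (1.25 and 0.994) and SPTY2D1OS (1.24 and 0.989) were left out, with 518 unshared 3' UTR peaks below the floor in all.

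Most genes with a control-only peak had other peaks in the knockdown list. Of the 2377 genes with a control-only 3' UTR peak, 1673 (70.4%, 68.5% to 72.2%) had at least 1 shNAT10 peak somewhere, against 5823 of the 10679 expressed genes with a coding transcript (54.5%). Of the same 2377, 1091 (45.9%) had one in the coding sequence and 1001 (42.1%) had one in the 3' UTR. A shNAT10-only peak in the same 3' UTR was present for 851 genes, which is 35.8% of the genes with control-only peaks and 38.9% of the 2187 genes with shNAT10-only peaks. Seen from the other side, 72.6% (70.7% to 74.4%) of those 2187 genes had a control peak somewhere. In 367 genes (15.4%) the control-only 3' UTR peak was the gene's sole peak in either list.

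Most genes carried 1 control-only peak in the 3' UTR (1810 genes), 426 carried 2, 105 carried 3, 22 carried 4 and 11 carried 5, and 3 genes carried more. The 3' UTRs of these genes were long, with a median of 2566 bases against 1338 over those 10679 genes, and of 4566 bases in the 141 genes with 3 or more. LPP, a LIM protein of focal adhesions, had the most, 9 control-only peaks from 1087 to 15502 bases after the stop codon in a 3' UTR of 16192 bases. There were 2 shNAT10 peaks in the same 3' UTR, at 5267 and 13704 bases, and the nearest pair of opposite peaks was 1078 bases apart. The strongest of the LPP peaks by fold enrichment, 1260, stood at chr3:188883179-188883388.

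PSD3, an exchange factor for ARF6, had 7 control-only peaks, and CBX5, the heterochromatin protein HP1 alpha, had 6 in a 3' UTR of 10815 bases. On CBX5 the 2 shNAT10 peaks lay between the control-only peaks, at 4523 and 5452 bases from the stop codon. CDK6, the partner kinase of the D cyclins, had 5 control-only peaks, 1 shared control peak and 7 shNAT10 peaks in 10219 bases. C6orf106 had 5 control-only peaks and 1 shNAT10 peak that lay in the gap between a pair of them, 29 bases from each. DNAJC5, a chaperone of synaptic and secretory vesicles, had 5 and 1. In these 3' UTRs the peaks of both lists were interleaved along the same sequence.

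**Figure D1:**
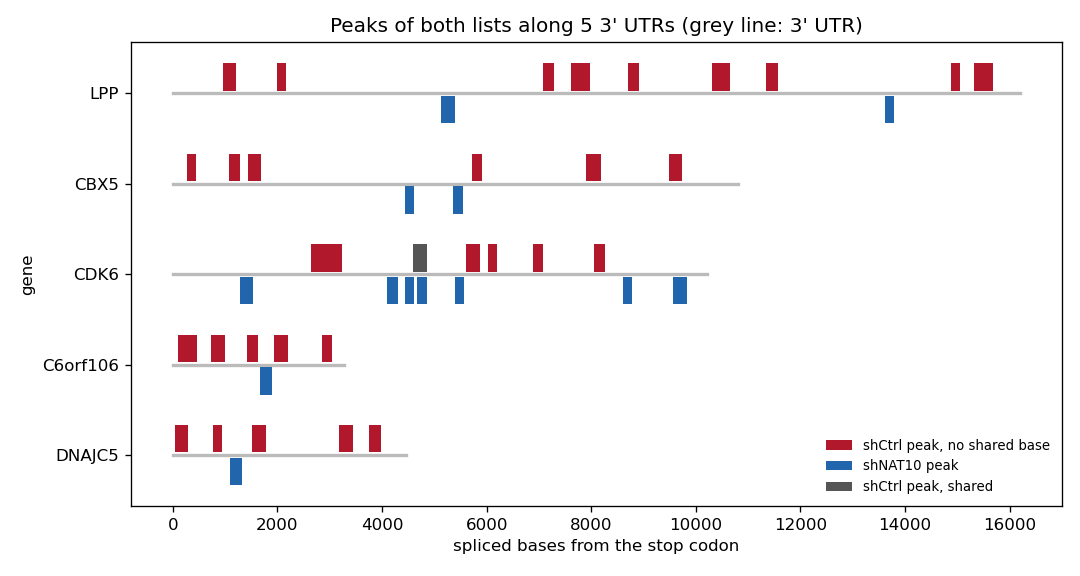
Peaks of both lists along the 3' UTRs of LPP, CBX5, CDK6, C6orf106 and DNAJC5, in spliced bases from the stop codon, with the grey line as long as the 3' UTR. Red bars above the line are control-only peaks, grey bars shared control peaks and blue bars below the line shNAT10 peaks; LPP has 9 red and 2 blue bars.

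Along the 3' UTR the control-only peaks leaned towards the stop codon. Of the 3142, 1301 (41.4%, 39.7% to 43.1%) had their midpoint in the third of the 3' UTR next to the stop codon, 1053 (33.5%) in the middle and 788 (25.1%, 23.6% to 26.6%) in the third next to the end. Of 10 equal parts, the one next to the stop codon held 403 and the one at the end 121 (3.85%, 3.23% to 4.58%). A peak with its midpoint near the stop codon can reach back into the coding sequence. One reaches the annotated end of the longest coding transcript only when its midpoint lies very close to it. The last LPP peak, 361 bases long and in the last of the 10 parts, had its midpoint 690 bases from that end. Whether the mRNAs of these cells extend to that end was not tested. The shNAT10-only peaks gave 42.5% (40.7% to 44.4%) and 23.9% (22.3% to 25.5%) next to the stop codon and next to the end, intervals that overlap those of the control-only peaks. Shared control peaks gave 47.3% (44.3% to 50.3%) and 19.4% (17.2% to 21.9%), values that lay outside those intervals. Next to the stop codon their interval still touched that of the shNAT10-only peaks. The shNAT10 peaks shared with shCtrl gave 45.45% (42.48% to 48.45%) and 20.28% (17.98% to 22.8%). Their interval next to the stop codon overlapped those of both unshared classes. The share of control peaks that were control-only was accordingly 72% (69.8% to 74%) next to the stop codon and 79.1% (76.5% to 81.5%) next to the end, and in the shNAT10 list the same shares were 71.2% (69% to 73.3%) and 75.7% (72.8% to 78.4%).

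The base composition of the control-only peaks was close to that of the rest of their 3' UTRs. The peaks held on average 26.9% A, 21.5% C, 21.7% G and 30% T, and control-only coding-sequence peaks held 25% C and 22.2% T. For 2867 of the 3142 peaks, windows of the peak's own length could be placed elsewhere in the same 3' UTR outside every peak of both lists. Those windows held 20.8% C, against 21.2% in the same 2867 peaks. The CNN repeat was found on the mRNA strand in 1310 peaks (41.7%, 40% to 43.4%), in 39.8% (38% to 41.6%) of the shNAT10-only peaks and in 45.8% (42.8% to 48.8%) of the shared control peaks, which are longer. In the 2867 peaks with windows the repeat was present in 40.4% (38.6% to 42.2%), and in 38.5% of the windows, just below that interval.

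The other motifs, known from 3' UTRs, were counted in the same way on the mRNA strand. The polyadenylation signal AATAAA was in 14.1% (12.9% to 15.4%) of the 2867 peaks and in 16.2% of the windows. The AU-rich pentamer ATTTA, which decay factors such as the ZFP36 proteins bind in longer form, was in 34.5% (32.7% to 36.2%) of these peaks and 35.5% of the windows. The Pumilio motif TGTANATA was in 4.08% (3.42% to 4.87%) of these peaks and 4.96% of the windows. ATTTA can share at most 1 base with either other motif, TGTANATA can share 4 with AATAAA, and a peak counted once for each motif it held. For AATAAA and TGTANATA the share in the windows lay above the interval of the peaks, and for ATTTA inside it. Windows were taken along the whole 3' UTR and not matched to the peaks by position. AATAAA was in 12.1% of the shared control peaks with windows, against 18.7% of their windows. In the shNAT10-only peaks it was in 14.5% (13.2% to 15.9%), against 16%. For TGTANATA the share in the windows lay inside the interval in both of these classes.

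RNA levels were not used to choose the peaks beyond the FPKM floor, and all 2377 genes passed the filter of the test across 12982 genes (limma on log2 of FPKM + 0.1, Benjamini-Hochberg adjustment). At an adjusted p under 0.05, 460 of the 2377 genes were lower in shNAT10 (19.4%) and 624 were higher (26.3%). The background was 21.2% lower and 20.8% higher over all tested genes, and 22.5% lower and 22% higher over the 10679 expressed genes with a coding transcript. Past a log2 fold change of 1 besides, 49 were lower (2.06%) and 82 higher (3.45%). The background was 3.57% and 2.91% over all tested genes, and 2.86% and 2.39% over the 10679 expressed genes with a coding transcript. The median log2 fold change was 0.06 over the genes with control-only peaks and -0.01 over all tested genes. In these bulk RNA samples, fewer cells of a type and less RNA per cell cannot be told apart.

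The lean towards higher values was not tested against other genes, and it moved with 3' UTR length and with shCtrl replicate 2. Without that library the median was 0.02. The counts were then 641 lower (27%) and 749 higher (31.5%), against 3318 lower (25.6%) and 3303 higher (25.4%) of all tested genes. On the TPM scale 322 of the genes were lower (13.55%) and 756 higher (31.8%), against 2075 (16%) and 3355 (25.8%) of all tested genes. The median of all tested genes then was 0.10. By 3' UTR length, the median of the genes with control-only peaks was -0.05 under 1000 bases, 0.06 from 1000 to 2500, 0.08 from 2500 to 5000 and 0.15 at 5000 bases or more. The other expressed coding genes gave -0.10, 0.01, 0.07 and 0.08 in the same classes. Without shCtrl replicate 2 the medians at 5000 bases or more were 0.02 and 0.01.

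Other sets of genes, by the peaks they carried, are given for comparison. The 831 genes with a shared 3' UTR peak had a median log2 fold change of 0.02, with 23.2% lower and 27.6% higher. The 2187 genes with a shNAT10-only 3' UTR peak had a median of 0.05, with 20.4% lower and 26.7% higher, and the 3369 genes with a control-only coding-sequence peak had 0.07, with 18.3% and 26.7%. These sets share genes and libraries with each other. The 704 genes with control-only 3' UTR peaks and no shNAT10 peak anywhere had a median of 0.004, with 151 lower (21.5%) and 172 higher (24.4%). The mirror set, 600 genes with a shNAT10-only 3' UTR peak and no control peak, had a median of -0.005, with 27.2% lower and 23.7% higher, and past a log2 fold change of 1 with 4.5% lower and 2.17% higher. The 3024 expressed coding genes without a peak in either list had a median of -0.07, with 25% lower and 18% higher. Differences between these sets were not tested. With 3 or more control-only peaks, 21 of 141 genes were lower and 34 higher, with a median of 0.13. Their 3' UTRs had a median of 4566 bases. From 2500 to 5000 bases, the median of all genes with control-only peaks was 0.08 with shCtrl replicate 2 and -0.004 without it. The sets in this paragraph are given with that library only.

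The 6 largest falls among genes with a control-only 3' UTR peak were on genes of varied function. LRRC8B, a subunit of volume-regulated anion channels, had FPKM values of 12.3, 7.77 and 10.8 in shCtrl and of 1.83, 2.06 and 2.34 in shNAT10. The genes of the largest falls and rises were taken from those whose groups do not overlap, so their separation is part of the choice. The log2 fold change of LRRC8B was -2.24 (SE 0.18, adjusted p = 0.00022). Its control-only peak (fold enrichment 108) ended 179 bases from a shNAT10 peak. ECHDC1, an enzyme that removes a by-product of fatty acid synthesis, had 44.7, 52 and 50 in shCtrl and 10.4, 11.8 and 12.1 in shNAT10, a change of -2.09 (SE 0.09, adjusted p = 4.3e-05), and carried 2 control-only peaks. PIK3IP1, an inhibitor of PI3 kinase, went from 3.73, 5.19 and 4.92 to 1.21, 0.883 and 1.1, with no shNAT10 peak on the gene. GMFB (-2.01, 2 control-only peaks), the signal peptidase subunit SPCS3 (-1.99) and the pyrophosphatase PPA1 (-1.93) had adjusted p-values from 5.7e-05 to 7.8e-05. SPCS3 had 7 shNAT10 peaks against 3 control peaks.

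The 6 largest rises ran from 1.61 to 2.56 on the log2 scale. SETD7, a lysine methyltransferase, had 4.74, 2.42 and 3.98 in shCtrl and 21, 21.1 and 22.6 in shNAT10, a log2 fold change of 2.56 (SE 0.22, adjusted p = 0.00028). NPR3, the clearance receptor of natriuretic peptides, went from 2.66, 1.94 and 2.44 to 10.6, 10.7 and 10.7, a change of 2.15 (SE 0.12, adjusted p = 6.8e-05). PERP, a desmosome protein and p53 target, went from 61.1, 70 and 67.1 to 236.5, 241.2 and 230.2, a change of 1.84 (SE 0.07, adjusted p = 3.8e-05). Groups without overlap were again a condition of the choice. The arginine methyltransferase PRMT6 (1.99), the mitochondrial import receptor TOMM22 (1.63) and GPIHBP1 (1.61), which anchors lipoprotein lipase, had adjusted p-values from 4.3e-05 to 0.00037. NPR3, PERP, TOMM22 and GPIHBP1 had no shNAT10 peak at all. None of these 12 calls was lost in any alternative tried.

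**Figure D2:**
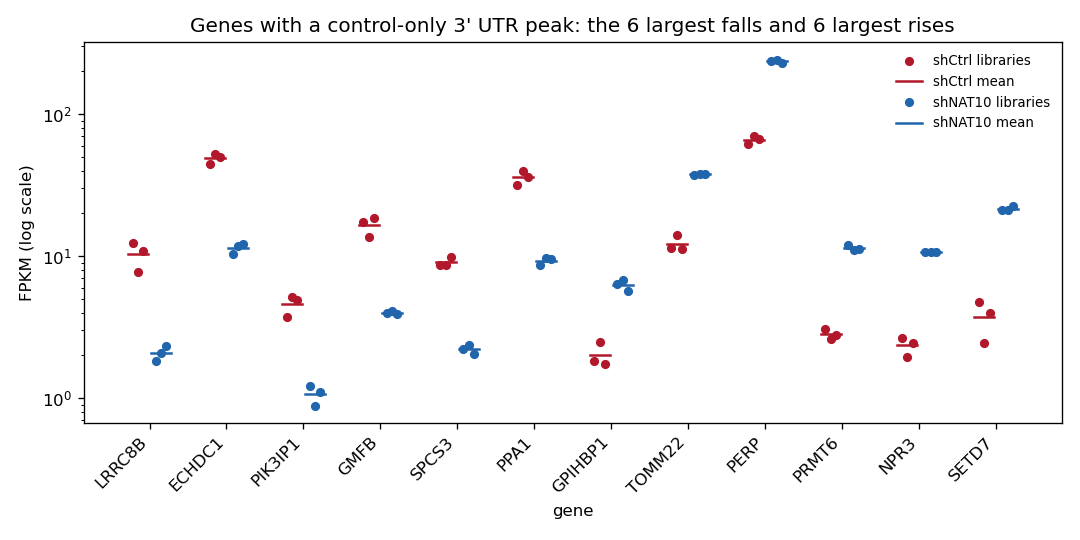
FPKM (log scale) of the 6 genes with the largest falls and the 6 with the largest rises among those with a control-only 3' UTR peak. Points are the 3 libraries of shCtrl (red) and of shNAT10 (blue) and short lines their means. The genes were chosen among those whose groups do not overlap.

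The genes of the strongest peaks moved in both directions. Among those with the lowest p-values, TNS3 (log2 fold change 0.91, SE 0.12, adjusted p = 0.0012), TMEM30A (0.62, adjusted p = 0.0019), HDGF (0.55, adjusted p = 0.0036) and the cohesin subunit RAD21 (0.38, adjusted p = 0.0072) were higher in shNAT10. ACTB (-0.05, SE 0.09) and EDEM1 (-0.04, SE 0.10) had overlapping groups. Among those with the highest fold enrichment, HDGFL2 was higher (1.01, adjusted p = 0.0012), CCND3 (-0.52, adjusted p = 0.007) and AP2A2 (-0.31, adjusted p = 0.012) were lower, and CSRNP2, PI4KA and RCOR1 had values of 0.03, 0.17 and 0.10 with overlapping groups. The AP2A2 call was lost without shNAT10 replicate 2. Of the genes with most control-only peaks, C6orf106 (1.07, SE 0.06, adjusted p = 6e-05) and CDK6 (1.21, SE 0.23, adjusted p = 0.0061) were higher. LPP, at 8.22, 3.9 and 6.32 in shCtrl and 9.29, 9.28 and 10.3 in shNAT10, had groups that did not overlap and a log2 fold change of 0.70 (SE 0.24, adjusted p = 0.055), which passed in 6 of the alternatives tried, 0.41 without shCtrl replicate 2 among them. PSD3, CBX5 and DNAJC5 had 0.54, 0.31 and 0.13, none past the threshold (adjusted p of 0.12, 0.19 and 0.15).

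The most abundant genes whose control peaks had no counterpart anywhere in the knockdown list had peaks of fold enrichment from 1.65 to 3.49, except RPL10 with 35.4. TMSB10, a small actin-binding protein, had a peak of fold enrichment 1.65 at FPKM values of 1098, 1770 and 1295 in shCtrl and 1414, 1404 and 1267 in shNAT10, which overlap. MAT2A, the synthetase of S-adenosylmethionine, had a peak of 3.02, the nuclear transport GTPase RAN one of 2.02, the kinase-anchoring protein AKAP12 one of 3.49 and the sodium pump subunit ATP1B1 one of 1.85. AKAP12 (0.87, SE 0.17, adjusted p = 0.0063) and ATP1B1 (0.57, SE 0.07, adjusted p = 0.00099) were higher in shNAT10. MAT2A had -0.13 (adjusted p = 0.18) and RAN 0.12 (adjusted p = 0.25). The ribosomal protein gene RPL10 was lower (-0.50, SE 0.12, adjusted p = 0.017), and that call was lost without the FPKM filter and without shNAT10 replicate 1 or 3. Its longest coding transcript has a 3' UTR of 1485 bases, against a median of 470 in its family, and 52.7% of its exon bases lie under a gene on the opposite strand. ACTB, RPL10 and RAN have 10, 19 and 9 annotated pseudogenes, and among other genes named here RPL37 has 11, UBE2Q2 has 8 and TOMM22, CDC42 and MAPK6 have 6 each, so their values are uncertain where reads were split among copies.

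Genes of proteins that act on 3' UTRs were counted from gene lists, whose 3' UTR lengths were not compared. A control-only 3' UTR peak was found on 2377 of 10679 expressed coding genes (22.3%, 21.5% to 23.1%). It was found on 22 of 46 expressed genes of 3' UTR-binding and microRNA proteins (47.8%), 4 of them lower and 4 higher in shNAT10, with a median log2 fold change of 0.03. Of all 46, 7 were lower and 10 higher. A control 3' UTR peak, shared or not, was found on 24 of the 46, and 18 of the 22 had a shNAT10 peak somewhere. AGO2, the slicing Argonaute, had 4 control-only peaks and 8 shNAT10 peaks, and its RNA fell from 11.9, 6.83 and 9.8 to 4.05, 3.93 and 4.11 FPKM (-1.18, SE 0.19, adjusted p = 0.0029). ZFP36L1, which binds AU-rich elements, was lower (-0.72, adjusted p = 0.0027). G3BP2, a stress granule protein (1.18, adjusted p = 0.00066), and the m6A reader YTHDF2 (0.31, adjusted p = 0.0079) were higher.

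Of 45 expressed genes of mRNA deadenylation and decay, 17 (37.8%) had a control-only 3' UTR peak, 2 of them lower and 5 higher, with a median of 0.16. The whole list of 45 leaned the same way, with 5 lower and 14 higher. The nonsense-mediated decay factors UPF2 (1.02, adjusted p = 0.00058), SMG5 (0.35, adjusted p = 0.0043) and UPF1 (0.34, adjusted p = 0.007) and the decapping activator PATL1 (0.39, adjusted p = 0.0067) were higher. The cleavage and polyadenylation machinery had 4 of 22 (18.2%), 1 lower and 1 higher, with a median of 0.07, and 4 lower and 4 higher of all 22. NUDT21 and CPSF6, partners in the complex that selects polyadenylation sites, had 2 and 3 control-only peaks and no shNAT10 peak. NUDT21 was lower (-0.34, SE 0.10, adjusted p = 0.029), a call lost on the TPM scale, without the FPKM filter and without most single libraries, and CPSF6 had 0.09 (adjusted p = 0.39). The phosphatase subunit PPP1CB was higher (0.78, adjusted p = 0.00061), and SYMPK had 0.05.

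Of 48 expressed genes of TGF-beta, Wnt and Hippo signalling, 20 (41.7%) had a control-only 3' UTR peak, 2 lower and 5 higher, with a median of 0.11, and 5 lower and 11 higher of all 48. YAP1, the Hippo effector, had FPKM values of 43.1, 30.8 and 38.2 in shCtrl and 67.9, 66.7 and 70 in shNAT10 (0.88, SE 0.12, adjusted p = 0.0016), with no shNAT10 peak. The Wnt receptor FZD6 was higher (0.59, adjusted p = 0.005), and the activin receptors ACVR1 (-0.37, adjusted p = 0.0053) and ACVR2A (-0.87, adjusted p = 0.0019) were lower. Of 34 expressed genes listed under receptor tyrosine kinases and adaptors, 10 (29.4%) had one, 0 lower and 3 higher, with a median of -0.0003. Of all 34, 4 were lower and 8 higher. The ones that rose were IGF2R (1.05, adjusted p = 0.0018), the phosphatase PTPN11 (0.87, adjusted p = 0.0036) and RYK (0.45, adjusted p = 0.0022). IGF2R was on the list although it is not a tyrosine kinase. IRS2 had 0.23.

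Of 66 expressed focal adhesion and integrin genes, 19 (28.8%) had a control-only 3' UTR peak, 6 lower and 5 higher, with a median of 0.01. Of all 66, 22 were lower and 15 higher, and 35 had a control 3' UTR peak, shared or not. The cyclin CCND1 fell from 165, 159 and 162 to 67.6, 67 and 69 FPKM (-1.26, SE 0.06, adjusted p = 4.4e-05), and the GTPase CDC42 fell by 0.74 on the log2 scale (adjusted p = 0.00042), with 57.1% of its exon bases under another annotated gene on its strand. AKT1 (0.92, adjusted p = 0.00018) and the exchange factor DOCK1 (1.12, adjusted p = 0.00067) were higher. The pancreatic cancer driver list had 7 of 31 (22.6%), 1 lower and 1 higher, and 4 lower and 8 higher of all 31. ARID1B was higher (0.58, adjusted p = 0.018), a call lost without shNAT10 replicate 1 or 3, where the change was 0.54 and 0.57. ACVR2A was the gene that fell, and KMT2C had 0.54 with an adjusted p of 0.19. No list was tested as a set. Among the genes with a control-only 3' UTR peak, 15 of 17 in the decay list had a shNAT10 peak somewhere. So had 2 of 4 for cleavage and polyadenylation and 16 of 20 for TGF-beta, Wnt and Hippo signalling. The receptor list had 9 of 10, the focal adhesion list 15 of 19 and the driver list 7 of 7.

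Of 10 genes that the study names, PXN, CDC42 and KDM4A carried control-only 3' UTR peaks, and ITGB5, BCAR1, JUN, PPP1R12C, DIAPH1, MBD4 and DHX30 carried none. Paxillin, the focal adhesion scaffold encoded by PXN, had 2 (fold enrichments 19.9 and 3.69) and no shNAT10 peak. Its FPKM was 79.9, 82 and 80.1 in shCtrl and 78.5, 78.1 and 76.1 in shNAT10, a log2 fold change of -0.06 (SE 0.06, adjusted p = 0.44). KDM4A, a histone demethylase, had 1 (fold enrichment 43.7) and was lower (-0.26, SE 0.07, adjusted p = 0.027). That call was lost on the TPM scale and in 5 of the 6 fits without 1 library, and 40.2% of the exon bases lie under another gene on the same strand. CDC42 had its control-only peak (fold enrichment 4.66) beside shared control peaks and an unshared shNAT10 peak (19.9) in the same 3' UTR. ITGB5 and DIAPH1 each had a shared control peak in the 3' UTR, and ITGB5 also had an unshared shNAT10 peak there.

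Among families by symbol, 16 of 32 ubiquitin-conjugating UBE2 genes had a control-only 3' UTR peak (50%), and 8 of 82 ribosomal protein genes did (9.76%). The share over all 10679 expressed coding genes was 22.3%. The median 3' UTR was 1892 bases over the 32 UBE2 genes and 470 over the 82 ribosomal protein genes, against 1338 over the 10679. Whether the shares follow from length was not tested. Of the 16 UBE2 genes, 5 were lower and 4 higher (10 and 6 of all 32), among them UBE2N (-0.63, adjusted p = 0.0005) and UBE2L3 (-0.40, adjusted p = 0.0056), which had 3 peaks. UBE2Q2 was higher (0.19, adjusted p = 0.048), a call that 4 fits on all libraries and 5 without 1 library did not give. Of the 8 ribosomal protein genes, 3 were lower and 0 higher, as were 33 and 1 of all 82. They included RPL37 (-0.52, adjusted p = 0.0089) and RPL10, and RPL14 had -0.16 (adjusted p = 0.2). In RPL37 and RPL14 the longest coding transcript has a 3' UTR of 7242 and 6355 bases.

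Zinc finger ZNF genes carried control-only 3' UTR peaks in 65 of 366 (17.8%), and 28 of the 65 were higher and 2 lower, with a median of 0.25. The whole ZNF family had 142 higher and 29 lower. ZNF24, with 3 peaks, was higher (0.60, adjusted p = 0.017), as was ZNF736 (0.48, adjusted p = 0.02), and ZNF496 was lower (-0.30, adjusted p = 0.033), each a call that some alternatives did not give. The TMEM genes leaned the other way, with 11 of 38 lower and 3 higher (51 and 20 of all 147), among them TMEM181 (-1.17, adjusted p = 0.00076) and TMEM50A (-0.44, adjusted p = 0.0048), which had 3 peaks. TMEM87B had 0.03.

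Solute carriers had 44 of 156 (28.2%), 10 lower and 8 higher, and 57 lower and 29 higher of all 156. SLC4A7 was higher (0.74, SE 0.24, adjusted p = 0.045), a call lost in 3 fits on all libraries and in 4 without 1 library, and SLC6A6 and SLC5A3 had 0.36 and 0.13. Of the RAB trafficking GTPases 16 of 47 (34%) had a control-only 3' UTR peak, 5 lower and 3 higher (12 and 9 of all 47), and RAB31 had 4 of them with a log2 fold change of 0.06. RAB4A (0.39, adjusted p = 0.0071) was higher and RAB3D (-0.53, adjusted p = 0.0016) lower. The MAPK cascade kinases had 9 of 38 (23.7%), 1 lower and 4 higher (9 and 11 of all 38), with MAPK6 at 1.38 (adjusted p = 0.00027), MAP4K4 at 0.90 (adjusted p = 0.0011) and MAP3K2 at 0.22 (adjusted p = 0.36). The USP deubiquitinases had 8 of 44 (18.2%), 2 lower and 1 higher (5 and 8 of all 44), with USP22 at 0.62 (adjusted p = 0.00054), USP13 at -0.28 and USP24 at 0.21. Of the 27 expressed kinesins, 3 were lower and 14 higher, and of the 5 with such a peak 2 were lower and 2 higher. KIF2A (-0.91, adjusted p = 0.0024) and KIF3B (-0.44, adjusted p = 0.0022) were lower. KIF14 (0.80, adjusted p = 0.02) was higher, a call lost in 1 fit on all libraries and 3 without 1 library. KIF1B (0.59, adjusted p = 0.043) was also higher. It was named after its values were seen and not tried under the alternatives.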

How the data were processed

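Each RNA-seq and acRIP-seq library was assigned by its label to shCtrl or shNAT10 PANC-1 cells. For RNA-seq the authors deposited FPKM values per Ensembl gene and library, and the submitters' processing notes name HISAT2 2, HTSeq 0.11.0, DESeq2 1.22.2 and the build hg38/GRCh38. For acRIP-seq the authors deposited 1 peak list per group, which holds the enrichment of IP against input as a ratio (fold) and log10 of each p-value. The peak caller and the annotation are not given in the sources used here.

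Peaks were placed on the longest protein-coding transcript per gene of GENCODE v29, which holds 58039 of the 58302 genes. Of the control-only 3' UTR peaks, 86.9% were also in the 3' UTR of the transcript with the longest coding sequence. Expression was tested with limma 3.58.1 (R 4.3.3) on log2(FPKM + 0.1), with a mean-variance trend, for genes that reached an FPKM of 1 in 3 or more libraries, and fold changes on this scale understate the change of low genes. Whole reads, recovered from the FPKM steps for 96.9% of values above 0 (within 0.01 reads), entered 1 alternative by voom, which called 2848 genes lower and 2816 higher. Peaks and intervals were handled in Python 3.11.15 with SciPy 1.17.1, NumPy 2.4.6, pandas 2.3.3 and matplotlib 3.10.9. On simulated data of 12982 genes, 136 of 200 genes lowered by 1 on the log2 scale were called, with 13 false calls, and all 100 of 100 simulated peak overlaps were found.

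The peaks, lists and tests were chosen with earlier results of these data known. Genes named are those of the 6 peaks with the lowest p-value and the 6 with the highest fold enrichment (FPKM of 10 or more), the 6 with most peaks, the 6 largest falls and rises past 1 without overlap, the 6 most abundant without a shNAT10 peak, up to 4 per list by adjusted p, up to 3 per family by number of peaks, and those the study names. Genes at the edges of the rule are named besides. Alternatives for RNA were another pseudocount, filter, scaling or model, a replicate block and leaving out each library. For peaks they were other overlaps, the upper 50% of the lists, FPKM floors and transcripts. Some items that these rules name are not reported here.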

Additional observations from a re-analysis of the deposited data

How the results depend on the processing

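The control-only share of control 3' UTR peaks (74.6%) was 89.8% when sharing needed a reciprocal overlap of 50%, 65.3% when peaks within 200 bases counted as shared, 85.9% and 79.4% in the upper 50% of both lists by fold enrichment and by p, and 72.2% with an FPKM floor of 5. The share of genes with any shNAT10 peak (70.4%) was 73.8%, 67.3%, 50.5%, 56.1% and 72.3% under the same settings, and 67.9% with no FPKM floor. In the upper 50% by fold enrichment there were 1790 peaks on 1466 genes, with 28.7% in the third of the 3' UTR next to the end. The median fold enrichment (55.4) was 50.2 with the reciprocal overlap, 202 and 107 in the upper 50% by fold enrichment and by p, 36 with the floor of 5, 75.2 with no floor and 41.8 without the peaks of low ratio, the last chosen after seeing the data. The median log2 fold change (0.06) was 0.17 with TPM and ran from 0.017 (without shCtrl replicate 2) to 0.085 with 1 library left out. In those fits the genes with control-only peaks called lower ran from 305 to 641 and those called higher from 430 to 749. Over all tested genes the counts ran from 1765 to 3318 lower and from 1774 to 3303 higher.

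The replicate numbers did not pair the libraries, with correlations of same-numbered deviations of -0.04, 0.06 and 0.11. With a replicate block 429 of the genes with control-only peaks were lower (18.05%) and 594 higher (25%). Over all tested genes the block gave 2603 lower (20.05%) and 2524 higher (19.4%). Of 66 called genes named, 11 lost the call in at least 1 alternative, and none turned direction. Genes that were not called and changed sign were ACTB (0.060 with TPM, 0.20 with quantile normalization, -0.12 to 0.042 with 1 library left out), EDEM1 (0.065 with TPM, -0.15 to 0.011), TMSB10 (0.11 with TPM, 0.23 with quantile normalization, -0.16 to 0.19), MAT2A (0.020 with quantile normalization), PXN (0.051 with TPM), CSRNP2 (-0.013 to 0.066) and RCOR1 (-0.012 to 0.19). The cause was not tested. With 1 list per group, the shares of peaks have no replicate check.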
